A study of Homo sapiens with 30 samples.

Results

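OPM2 and H929, a pair of human multiple myeloma lines, were each given dBRD9-A, and the question taken up here was which transcripts responded differently in them. For every gene the log2 change from DMSO to dBRD9-A in OPM2 was subtracted from the log2 change in H929, and this difference was tested. The design supplied 12 of the 30 listed samples, and 11 libraries entered the fit, for a reason given with the library checks. A positive difference means that the response was higher in H929 and a negative one that it was higher in OPM2, whatever the direction of each response.

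Both lines carry the translocation that joins the immunoglobulin heavy chain locus to WHSC1 (NSD2) and FGFR3. The 4 groups were OPM2 with DMSO, OPM2 with 100 nM dBRD9-A, H929 with DMSO and H929 with 100 nM dBRD9-A, all for 24 h, with 3 libraries in each. Each line stands for 1 tumour, so a difference between them is a difference between these cells and not between classes of myeloma. Messenger RNA was sequenced from poly(A)-selected libraries. Samples with hairpins or from polysomes (18) were not analysed here.

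BRD9 is the bromodomain subunit of non-canonical BAF, a chromatin remodelling complex that also holds GLTSCR1 or GLTSCR1L and lacks several subunits of the other BAF complexes. dBRD9-A binds BRD9 and brings it to cereblon, the product of CRBN, so that the protein is degraded. In myeloma cells, growth depends on MYC and on lymphoid transcription factors such as IRF4, and interferon-stimulated genes form a separate programme that STAT and IRF factors switch on.

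Total counts were 42895389 to 76600945 in 11 libraries and 24524193 in OPM2 dBRD9-A replicate 2. Over 12320 genes, the log2 level of that library deviated from the mean of its group mates with an SD of 1.01, against 0.21 to 0.30 in the other groups and 0.33 between its mates alone. It was left out of the fit, and its value is printed wherever libraries are given one by one and beside some of the means. Across genes the difference of responses had a Spearman coefficient with transcript GC content of -0.06 with 11 libraries and 0.28 with 12. The deviations of single libraries from their group mates had such coefficients too, also among the libraries kept. They included -0.64 in OPM2 dBRD9-A replicate 2, -0.54 and 0.60 in H929 dBRD9-A replicates 1 and 2, and -0.40 in OPM2 DMSO replicate 3. Levels are library-scaled counts (CPM), and means ± SD are over 3 libraries, or over replicates 1 and 3 for OPM2 with dBRD9-A. Plasma cell markers were present, with SDC1 (CD138) at 261 to 1219 CPM and XBP1 at 1351 to 2334 CPM over all libraries. Of markers of other cells, COL1A2, KRT19, MPO, AIF1 and HBA2 had no count in any library, MS4A1 (CD20) had 5 counts in all, and NCAM1, which myeloma cells can carry, was at 131.9 to 375 CPM. Other markers of those lists had reads. In H929 CD3E was at 23.2 to 39.3, PECAM1 at 27.4 to 44.9, KRT18 at 6.07 to 16.8 and CSF1R at 1.42 to 10.3 CPM, against at most 0.926, 2.37, 0.266 and 0.547 CPM in OPM2, where FN1 was at 12.8 to 67.3 CPM. Their part in the results was not tested. BRD9 transcript checks no label, because the compound acts on the protein. It was at 89.2, 85.95 and 93.9 CPM with DMSO and 67.1 and 81.05 with dBRD9-A, and 80.9 in replicate 2 in OPM2. In H929 it was at 79.9, 103 and 79.9 CPM with DMSO and 59.2, 60.3 and 71.5 with dBRD9-A. It fell in H929 (-0.43) and had -0.29 in OPM2, and the difference of -0.14 ± 0.16 (SE; edgeR adjusted p = 0.815) was not called.

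In all, 507 of 16653 genes, or 3.04%, had a different response in the 2 lines at an adjusted p under 0.05 (edgeR's quasi-likelihood test, Benjamini-Hochberg adjustment). The response was higher in H929 for 272 (1.63%) and higher in OPM2 for 235 (1.41%), and 260 differed at least 2-fold. Scaling by library size alone gave 484 calls, of which 43.6% were higher in H929, against 53.6% here. With all 12 libraries 95 genes were called (0.579% of 16408), 48 higher in H929 and 47 higher in OPM2. All 95 were among the 507 with the same direction, and the 506 of the 507 that this fit tested kept their direction. The 12-library fit holds the same 11 libraries, so this overlap is no independent check. The labels do not tell whether replicates came from separate cultures, and the p-values then reflect only how these libraries vary, which may be technical. Each library is RNA of a whole culture, so fewer cells of a kind and less RNA per cell cannot be told apart.

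The responses themselves were broad. In OPM2 2686 genes rose (16.1%) and 2591 fell (15.6%), and in H929 3198 rose (19.2%) and 2748 fell (16.5%). In the 11 libraries, treated and DMSO groups did not overlap for 10156 of 16653 genes in OPM2, 7560 in H929 and 5545 in both. OPM2 had fewer treated libraries than H929 in this count, which makes groups apart more frequent there, so these counts do not compare the lines. Groups apart in a line, and a call with 12 libraries too, were required of the highest, lowest and opposite genes named below. For these genes both are a description only. Among the 507 genes, 106 rose and 23 fell in both lines, so that the lines differed in size. Another 25 rose in OPM2 and fell in H929, and 49 fell in OPM2 and rose in H929. A response was called in OPM2 alone for 106 that rose and 62 that fell, and in H929 alone for 108 that rose and 28 that fell. The plot of the response in one line against that in the other shows both kinds.

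**Figure D1:**
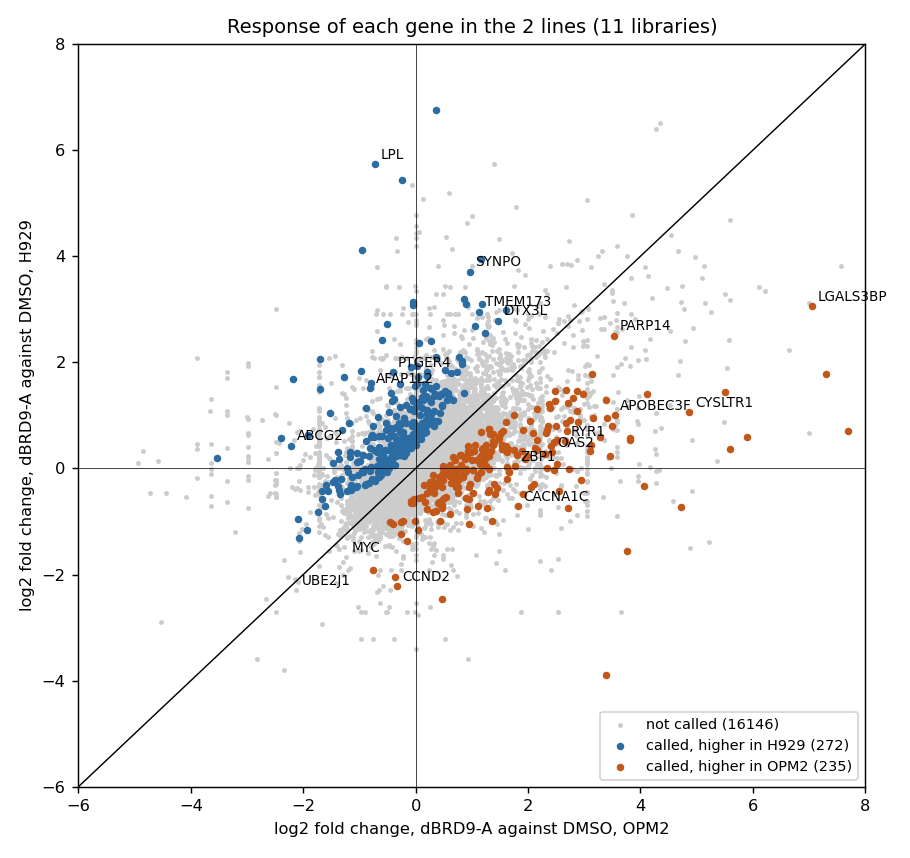
Log2 fold change of each gene with dBRD9-A against DMSO in OPM2 (horizontal axis) and in H929 (vertical axis), from the 11-library fit; each point is a gene, grey points were not called for the difference, and the diagonal marks equal responses. The 272 blue genes lie above the diagonal and the 235 orange genes below it, and CYSLTR1 and LGALS3BP lie far to the right while SYNPO lies high above.

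The 2 sets had unequal levels before treatment. Genes with the higher response in OPM2 had a median of 1.67 log2 CPM in OPM2 with DMSO and 2.94 with dBRD9-A, and of 4.14 and 4.22 in H929. Those with the higher response in H929 had 4.65 and 4.35 in OPM2 and 3.67 and 4.31 in H929. Over all genes tested the 4 medians were 3.76, 3.81, 3.83 and 3.84. In the 47 genes called in both fits and higher in OPM2, the OPM2 level went from -0.40 to 2.24 log2 CPM, and the H929 level was 4.20 and 4.69. The DMSO libraries enter both the level and the response, so these levels are set side by side and no relation is drawn from them.

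Interferon-stimulated genes rose in both lines, and it was single members that set the lines apart. Of 49 tested, 30 rose in OPM2 and 40 rose in H929, while none fell in OPM2 and 1 fell in H929, and the median responses were 1.36 and 1.32. The median difference was 0.07, against 0.02 over all genes. The response was higher in OPM2 for 7 members (OAS2, LGALS3BP, UBE2L6, PARP12, PARP14, ISG20 and IFI35) and higher in H929 for 3 (DTX3L, MX2 and PLSCR1), which is 20.4% of the list. With 12 libraries OAS2, LGALS3BP, UBE2L6 and DTX3L were called.

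OAS2, an oligoadenylate synthetase that senses double-stranded RNA, was at 0.817, 0.781 and 0.753 CPM with DMSO and 4.38 and 4.12 with dBRD9-A, and 3.66 in replicate 2 in OPM2. Values in H929 were 64.7, 68.02 and 65.3 CPM with DMSO and 74.6, 58.1 and 107 with dBRD9-A. All 3 treated OPM2 libraries lay above all OPM2 DMSO libraries, whereas the H929 groups overlapped. The responses were 2.43 in OPM2 and 0.31 in H929, a difference of -2.12 ± 0.28 (SE; edgeR adjusted p = 0.000645). Treated OPM2 cells were still far below untreated H929 cells.

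UBE2L6, the conjugating enzyme for the ubiquitin-like protein ISG15, followed the same order of levels. It was at 0.518, 0.37 and 0.337 CPM with DMSO and 2.34 and 1.24 with dBRD9-A, and 1.39 in replicate 2 in OPM2, and at 39.3, 39.9 and 35.7 CPM with DMSO and 42.6, 53.03 and 50.2 with dBRD9-A in H929. The groups did not overlap in either line, with a gap between them that was larger in OPM2 as a ratio and smaller in CPM, and the difference was -1.75 ± 0.29 (SE; edgeR adjusted p = 0.0035).

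LGALS3BP, a secreted galectin-binding glycoprotein, went from almost no reads in OPM2, with 10 counts over the 3 DMSO libraries, to the level reached in H929. It was at 0.0943, 0.0137 and 0.0389 CPM with DMSO and 8.93 and 4.18 with dBRD9-A, and 4.46 in replicate 2 in OPM2. The H929 libraries held 1.097, 0.997 and 1.14 CPM with DMSO and 8.43, 11.2 and 6.801 with dBRD9-A. It rose in both lines and the treated groups overlapped between the lines, so the difference of -4.0 ± 0.61 (SE; edgeR adjusted p = 0.00173) came with unequal DMSO levels. PARP12, an ADP-ribosyltransferase, had 6 counts in OPM2 with DMSO. Its mean moved from 0.0281 ± 0.0359 to 0.291 ± 0.0275 CPM in OPM2 (SD), with replicate 2 at 0.126, and from 9.49 ± 0.467 to 14.1 ± 0.544 CPM in H929, a difference of -2.67 ± 0.54 (SE; edgeR adjusted p = 0.0128). PARP14, of the same enzyme family, rose in both lines, from 2.18 ± 0.2903 to 25.5 ± 4.75 CPM in OPM2 (SD), with replicate 2 at 38.6, and from 9.54 ± 1.33 to 52.8 ± 11.4 CPM in H929, and differed by -1.03 ± 0.25 (SE; edgeR adjusted p = 0.0339).

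On the other side stood DTX3L, a ubiquitin ligase that partners PARP9. It was at 10.6, 11.4 and 7.59 CPM with DMSO and 30.8 and 23.98 with dBRD9-A, and 29.5 in replicate 2 in OPM2. H929 cells were at 3.34, 2.72 and 2.75 CPM with DMSO and 21.5, 18.6 and 19.3 with dBRD9-A. It rose in both lines without overlap, by 1.46 and 2.78, and the difference was 1.32 ± 0.22 (SE; edgeR adjusted p = 0.00387). PARP9, which lies head to head with DTX3L, rose by 2.98 in OPM2 and 2.40 in H929, and its difference of -0.58 ± 0.44 (SE; edgeR adjusted p = 0.659) was not called. PLSCR1, a phospholipid scramblase, rose in H929 (1.30) and was at 0.24 in OPM2, a difference of 1.06 ± 0.23 (SE; edgeR adjusted p = 0.0218).

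Some of these calls rested on single libraries. PARP12 was no longer called without OPM2 dBRD9-A replicate 1 (adjusted p = 0.0663). PARP14 was no longer called without H929 DMSO replicate 1, H929 DMSO replicate 3, H929 dBRD9-A replicate 1, OPM2 DMSO replicate 1, OPM2 DMSO replicate 2, OPM2 DMSO replicate 3 or OPM2 dBRD9-A replicate 1 (adjusted p = 0.0514 to 0.157). PLSCR1 was no longer called without H929 DMSO replicate 3, OPM2 DMSO replicate 2 or OPM2 dBRD9-A replicate 3 (adjusted p = 0.0561 to 0.136). MX2 and IFI35 were each lost in 8 of the 11 fits without 1 library, and ISG20 in 4, at adjusted p up to 0.196, 0.192 and 0.2. OAS2, LGALS3BP, UBE2L6 and DTX3L were called in all 11.

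**Figure D2:**
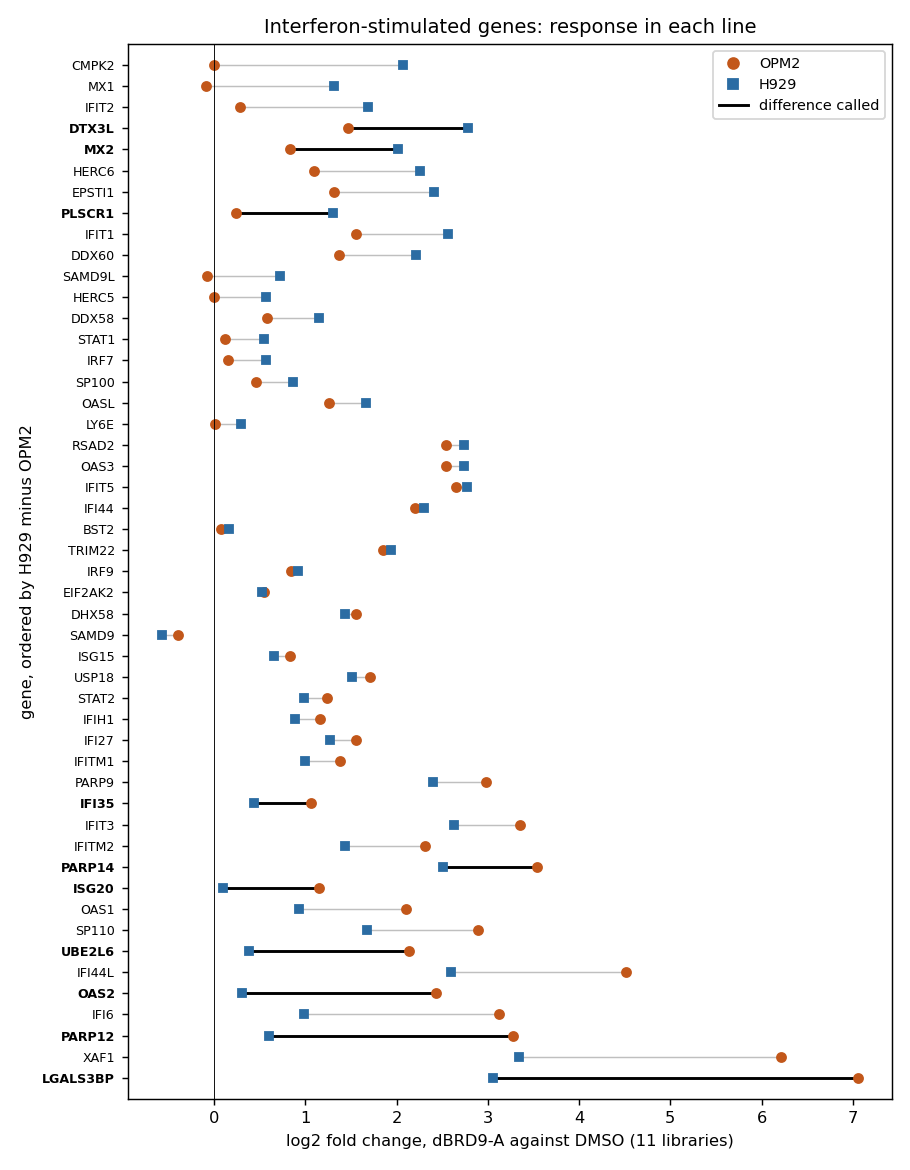
Log2 fold change with dBRD9-A against DMSO in OPM2 (circles) and H929 (squares) for the 49 interferon-stimulated genes tested, ordered by the difference; black lines and bold names mark the 10 called for the difference. Most members lie right of 0 in both lines, and LGALS3BP and PARP12 have the largest gaps among those called, with OPM2 higher.

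**Figure D3:**
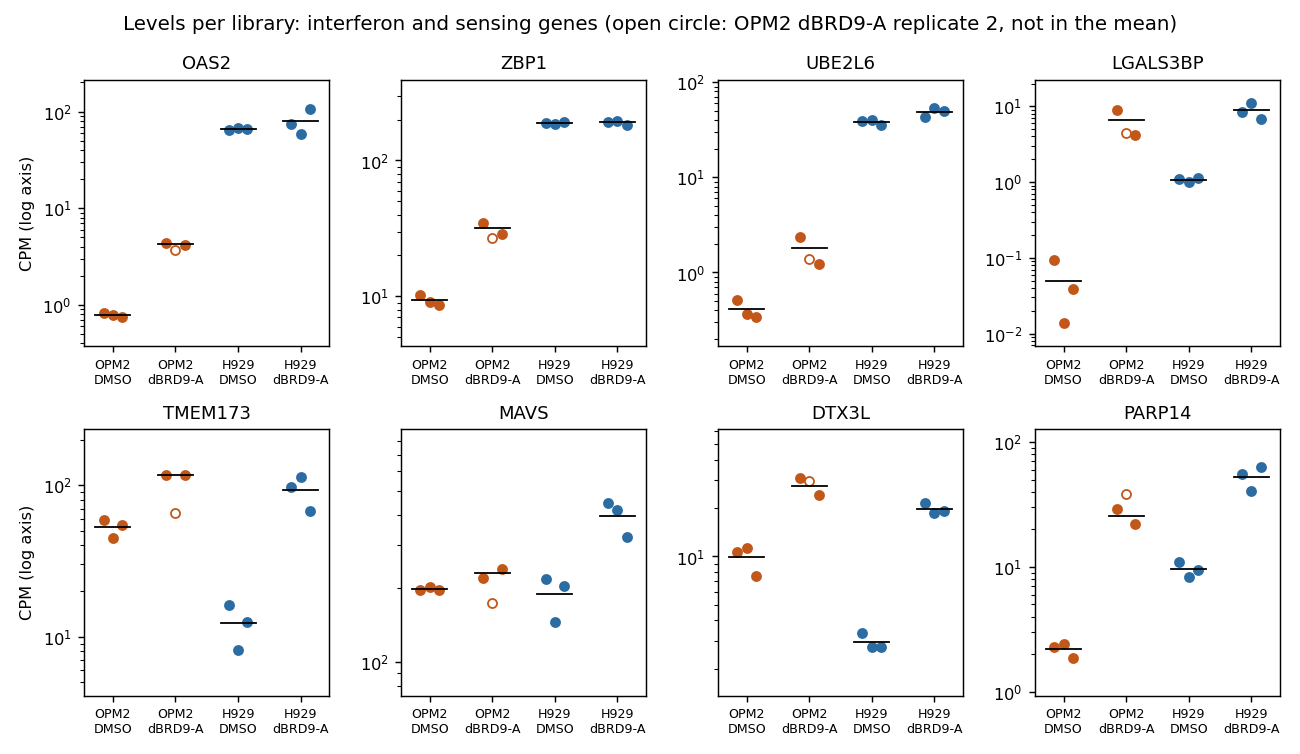
CPM (log axis) in each library for OAS2, ZBP1, UBE2L6, LGALS3BP, TMEM173, MAVS, DTX3L and PARP14; points are libraries, bars are group means, and the open circle is OPM2 dBRD9-A replicate 2, which is outside the mean. OAS2, ZBP1 and UBE2L6 move in OPM2 while staying below H929, and TMEM173 and DTX3L start lower in H929 and move further there.

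Promoters of the list were read from the RefSeq table of GRCh38.p14, a newer build than that of the counts, as 250 bases before to 50 after the gene start. Of the 49 tested members 37 had a promoter there. The core of the interferon-stimulated response element, written as GAAA, any 2 bases and GAAA, and searched on both strands, was in 24 of these 37 (64.9%), against 3.57% of all 35116 promoters in the table and 3.01% of those of tested genes. It was in 4 of 6 promoters of members with the higher response in OPM2, in 2 of 2 with the higher response in H929, and in 18 of 29 of those not called. Of the 8 called members with a promoter in the table, 6 held the motif, ISG20 among them, and IFI35 and UBE2L6 did not. The 5 windows of 100 bases that follow were taken from those that held it, to show where it lies in members called on either side; capitals mark the motif on the strand read, and the window of DTX3L runs 4 bases past the gene start.
LGALS3BP, chr17:78979924-78980023, minus strand: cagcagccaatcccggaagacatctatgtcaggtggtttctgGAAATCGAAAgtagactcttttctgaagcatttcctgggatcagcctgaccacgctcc
PARP14, chr3:122680739-122680838, plus strand: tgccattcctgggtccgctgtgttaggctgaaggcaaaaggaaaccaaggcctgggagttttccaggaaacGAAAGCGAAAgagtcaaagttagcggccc
PARP12, chr7:140062952-140063051, minus strand: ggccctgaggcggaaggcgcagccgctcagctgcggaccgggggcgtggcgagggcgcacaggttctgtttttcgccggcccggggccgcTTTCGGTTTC
DTX3L, chr3:122564242-122564341, plus strand: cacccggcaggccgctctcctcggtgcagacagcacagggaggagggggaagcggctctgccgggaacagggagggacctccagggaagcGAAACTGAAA
PLSCR1, chr3:146544608-146544707, minus strand: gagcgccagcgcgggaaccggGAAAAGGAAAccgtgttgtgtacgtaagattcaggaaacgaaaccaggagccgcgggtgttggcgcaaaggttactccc
The motif starts 58 bases before the gene start in LGALS3BP, 29 in PARP14, 10 in PARP12, 6 in DTX3L and 79 in PLSCR1. A match says only that the letters are in the window.

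Nucleic acid sensing genes were called on either side too. Of the 24 tested 16.7% were called, with TMEM173, MAVS and SAMHD1 higher in H929 and ZBP1 higher in OPM2. TMEM173, the STING adaptor of cytosolic DNA sensing, was at 58.9, 44.5 and 54.8 CPM with DMSO and 116 and 117 with dBRD9-A, and 65.8 in replicate 2 in OPM2. Its H929 levels were 16.04, 8.14 and 12.4 CPM with DMSO and 97.1, 114 and 67.98 with dBRD9-A. It rose in both lines without overlap, and replicate 2 in OPM2 was the lowest treated library. The difference was 1.82 ± 0.30 (SE; edgeR adjusted p = 0.00334).

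MAVS, the mitochondrial adaptor of the RNA sensors, was at 197, 202 and 198 CPM with DMSO and 221 and 241 with dBRD9-A, and 174 in replicate 2 in OPM2. In H929 it was at 219, 146 and 204 CPM with DMSO and 446, 419.5 and 324 with dBRD9-A. H929 libraries did not overlap, and in OPM2 replicate 2 fell below the DMSO libraries that replicates 1 and 3 exceeded. The responses were 0.20, not called in OPM2, and 1.1, called in H929, with a difference of 0.89 ± 0.21 (SE; edgeR adjusted p = 0.028). ZBP1, a sensor of left-handed nucleic acids, was at 10.3, 9.09 and 8.63 CPM with DMSO and 34.9 and 28.9 with dBRD9-A, and 26.9 in replicate 2 in OPM2. Values in H929 were 190.1, 185 and 192 CPM with DMSO and 193, 196 and 182 with dBRD9-A. OPM2 groups stood apart below H929, the H929 groups overlapped, and the difference of -1.72 ± 0.13 (SE; edgeR adjusted p = 8.31e-06) had the smallest adjusted p of the genes named here.

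APOBEC3F, a cytidine deaminase that restricts retroviruses, was the 1 member called of 7 APOBEC3 genes tested. It went from 0.212 ± 0.0368 to 2.49 ± 0.619 CPM in OPM2 (SD), with 16.6 ± 4.79 and then 32.6 ± 4.38 CPM in H929. It rose in both, with a difference of -2.54 ± 0.39 (SE; edgeR adjusted p = 0.00183). Of 21 interferon receptors and signal transducers none was called by edgeR, while 3 had an unadjusted p under 0.05, DESeq2 called 1 and limma-voom with 12 libraries none. MAVS was no longer called without H929 dBRD9-A replicate 1, OPM2 DMSO replicate 1, OPM2 DMSO replicate 2, OPM2 DMSO replicate 3, OPM2 dBRD9-A replicate 1 or OPM2 dBRD9-A replicate 3 (adjusted p = 0.0511 to 0.15). With 12 libraries TMEM173, ZBP1 and APOBEC3F were called, and MAVS and SAMHD1 were not. SAMHD1, which overlaps TLDC2 on the opposite strand, was lost in 3 of the 11 fits without 1 library.

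Of 29 NF-kB pathway genes, 5 (17.2%) had the higher response in OPM2, and by edgeR none had it in H929, where 1 had an unadjusted p under 0.05 and neither DESeq2 nor limma-voom made a call. They were the subunits RELB and NFKB2, the target NFKBIZ, the adhesion molecule ICAM1 and CFLAR, an inhibitor of death receptor signalling. RELB rose in OPM2 and fell in H929. It was at 4.32, 4.06 and 4.36 CPM with DMSO and 5.56 and 6.57 with dBRD9-A, and 2.53 in replicate 2 in OPM2, and at 7.58, 6.85 and 7.35 CPM with DMSO and 4.12, 5.29 and 4.98 with dBRD9-A in H929. Replicate 2 lay below the OPM2 DMSO libraries and the other treated libraries above them. The difference was -1.07 ± 0.19 (SE; edgeR adjusted p = 0.0046).

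NFKB2 had 0.49 in OPM2 and -0.22 in H929, a difference of -0.71 ± 0.13 (SE; edgeR adjusted p = 0.00607), and replicate 2 was again below the DMSO libraries, at 11.7 against 16.04, 16.1 and 16.3 CPM. CFLAR went from 32.1 ± 1.22 to 58.02 ± 0.988 CPM in OPM2 (SD), where replicate 2 was at 85.9 CPM, with 115 ± 13.03 and then 99.8 ± 12.2 CPM in H929, a difference of -1.01 ± 0.15 (SE; edgeR adjusted p = 0.00139). ICAM1 had 28 counts over the OPM2 DMSO libraries and 74 over replicates 1 and 3, against 83.3, 61.7 and 76.3 CPM in H929 with DMSO, and differed by -2.40 ± 0.43 (SE; edgeR adjusted p = 0.00572). An opposite-strand transcript covers 25.1% of its exon bases. Replicate 2 held 0.253 CPM of ICAM1, against 0.532 and 0.574 in its group mates. NFKBIZ was lost in 8 of the 11 fits without 1 library (adjusted p up to 0.167). With 12 libraries CFLAR was called and the other NF-kB genes were not.

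Receptors at the cell surface moved either way. CYSLTR1, a receptor for cysteinyl leukotrienes, was at 0.204, 0.0959 and 0.195 CPM with DMSO and 6.21 and 3.56 with dBRD9-A, and 7.79 in replicate 2 in OPM2. The H929 libraries held 42.9, 60.3 and 45.6 CPM with DMSO and 108, 70.4 and 125 with dBRD9-A. Treated libraries lay above DMSO in both lines, the OPM2 ones from 35 counts over the DMSO group, and the difference was -3.81 ± 0.47 (SE; edgeR adjusted p = 0.000353).

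PTGER4, a prostaglandin E receptor, did the opposite. It was at 15.9, 13.5 and 14.1 CPM with DMSO and 10.4 and 11.6 with dBRD9-A, and 8.88 in replicate 2 in OPM2, and at 0.274, 0.3204 and 0.253 CPM with DMSO and 1.05, 1.06 and 0.842 with dBRD9-A in H929. Treated libraries lay below DMSO in OPM2 and above it in H929, and the difference was 2.23 ± 0.24 (SE; edgeR adjusted p = 0.000105). MET, the receptor of hepatocyte growth factor, fell in OPM2, the line with little of it, from 2.196 ± 0.08798 to 0.844 ± 0.0406 CPM there, and rose from 15.7 ± 0.875 to 19.1 ± 1.64 CPM in H929 (SD). Its difference was 1.71 ± 0.18 (SE; edgeR adjusted p = 9.24e-05).

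CSF2RB, the shared beta chain of the receptors for GM-CSF and related cytokines, rose in OPM2 (0.74) and fell in H929 (-0.31), with a difference of -1.05 ± 0.18 (SE; edgeR adjusted p = 0.00387). CXCR3, a chemokine receptor, rose in both, by 2.08 and 0.67, with a difference of -1.41 ± 0.30 (SE; edgeR adjusted p = 0.0171). Of 27 cytokine and eicosanoid receptors, 4 were called (14.8%). Replicate 2 of OPM2 was at 2.905 CPM of CXCR3, against 8.07 and 9.298 in its group mates, and at 1.68 CPM of CSF2RB, against 2.74 and 3.02. CXCR3 was no longer called without OPM2 dBRD9-A replicate 3 (adjusted p = 0.0692). With 12 libraries CYSLTR1 and PTGER4 were called, and CXCR3 (adjusted p = 0.561) and CSF2RB (adjusted p = 0.199) were not.

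FGFR3, the receptor tyrosine kinase of the shared translocation, fell in both lines and was not called for the difference. It was at 2085, 2069 and 2184 CPM with DMSO and 779.6 and 1049 with dBRD9-A, and 313 in replicate 2 in OPM2, and at 77.2, 87.8 and 90.1 CPM with DMSO and 32.6, 34.4 and 34.3 with dBRD9-A in H929. DMSO and treated libraries did not overlap in either line, and the difference was -0.08 ± 0.15 (SE; edgeR adjusted p = 0.903). Of 28 genes of FGFR3 and MAPK feedback 3 were called (10.7%), DUSP4, DUSP10 and PHLDA1, each higher in OPM2. By edgeR none was higher in H929, where 4 had an unadjusted p under 0.05, DESeq2 called 2 and limma-voom with 12 libraries 1. The median response of that list was 0.0012 in OPM2 and -0.23 in H929. PHLDA1, a pleckstrin homology-like protein, rose in OPM2 (0.95) and fell in H929 (-0.57), a difference of -1.51 ± 0.29 (SE; edgeR adjusted p = 0.00938). PHLDA1 was no longer called without OPM2 dBRD9-A replicate 1 (adjusted p = 0.0593). DUSP4 was lost without the same library (adjusted p = 0.0548), and DUSP10 in 6 of the 11 fits. With 12 libraries edgeR called none of the 3, at adjusted p of 0.0604 for PHLDA1, 0.203 for DUSP4 and 0.104 for DUSP10.

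Plasma cell genes were called on one side. Of 25 tested, 5 (20%) had the higher response in H929 and none in OPM2 by edgeR, where 3 had an unadjusted p under 0.05 and DESeq2 and limma-voom with 12 libraries called 2 each. The median response was -0.31 in OPM2 and -0.06 in H929. Summed over the list, libraries held 21770 to 25360 CPM in OPM2 with DMSO and 13940 to 17220 with dBRD9-A, and 31370 to 34570 and 27820 to 31410 CPM in H929.

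MZB1, an endoplasmic reticulum chaperone of plasma cells, was at 194, 217 and 199.8 CPM with DMSO and 73.1 and 85.3 with dBRD9-A, and 46.3 in replicate 2 in OPM2. H929 cells were at 730.5, 716 and 650.1 CPM with DMSO and 490.2, 605 and 529 with dBRD9-A. It fell in both lines, and the difference was 1.04 ± 0.14 (SE; edgeR adjusted p = 0.000771). SLAMF7, the surface antigen bound by elotuzumab, was at 496, 456 and 454 CPM with DMSO and 164 and 135 with dBRD9-A, and 154 in replicate 2 in OPM2. Its H929 levels were 110.0, 156 and 139.9 CPM with DMSO and 92.7, 74.8 and 97.02 with dBRD9-A. All treated libraries of either line lay below their DMSO libraries, and the difference was 1.08 ± 0.19 (SE; edgeR adjusted p = 0.00431).

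WHSC1, the histone methyltransferase of the shared translocation, fell in OPM2 alone. It was at 1871, 1831 and 2087 CPM with DMSO and 1185 and 1326 with dBRD9-A, and 1088 in replicate 2 in OPM2, and at 1013, 1071 and 1096 CPM with DMSO and 1065, 995 and 1060 with dBRD9-A in H929. OPM2 groups stood apart and H929 groups overlapped, with a difference of 0.64 ± 0.12 (SE; edgeR adjusted p = 0.00933). CAV1, caveolin, rose in H929, the line with the lower level, from 2.499 ± 0.503 to 6.17 ± 0.638 CPM there (SD), and had a response of 0.12 in OPM2. Its difference was 1.22 ± 0.22 (SE; edgeR adjusted p = 0.00565). The fifth, ITGB7, overlaps ZNF740 on the opposite strand over 51.4% of its exon bases, and its value is therefore left out. WHSC1 was no longer called without OPM2 dBRD9-A replicate 1 (adjusted p = 0.104), and CAV1 was lost without the same library (adjusted p = 0.0548). With 12 libraries CAV1 was called and MZB1, SLAMF7 and WHSC1 were not.

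Of 31 lymphoid transcription factors 2 were called (6.45%), both higher in H929. By edgeR none was higher in OPM2, where 4 had an unadjusted p under 0.05 and DESeq2 and limma-voom with 12 libraries called 1 each. ETS1 fell in OPM2 and rose in H929. It was at 164, 166 and 186 CPM with DMSO and 121 and 120.3 with dBRD9-A, and 102 in replicate 2 in OPM2, and at 28.01, 35.8 and 28.2 CPM with DMSO and 47.1, 39.6 and 61.1 with dBRD9-A in H929. Groups of the same line did not overlap, and the difference was 1.25 ± 0.20 (SE; edgeR adjusted p = 0.00233). FLI1, of the same ETS family, fell in OPM2 and was not called in H929, with a difference of 0.58 ± 0.13 (SE; edgeR adjusted p = 0.0218). FLI1 was no longer called without H929 DMSO replicate 2, OPM2 DMSO replicate 1, OPM2 DMSO replicate 3, OPM2 dBRD9-A replicate 1 or OPM2 dBRD9-A replicate 3 (adjusted p = 0.0503 to 0.125). With 12 libraries ETS1 was called and FLI1 was not (adjusted p = 0.179).

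Genes of the actin cytoskeleton and of adhesion gave several of the highest differences on the H929 side. Of 52 integrin, focal adhesion and actin genes 9 were called (17.3%), 7 higher in H929 (ITGA3, ITGB7, SYNPO, SH3PXD2B, AFAP1L2, CAV1 and CAV2) and 2 higher in OPM2 (ZYX and SH3PXD2A). The median responses were 0.29 and 0.33. With 12 libraries 5 and 1 were called. ITGB7, CAV2 and ZYX were lost in 3, 4 and 4 of the 11 fits without 1 library, and SH3PXD2A was called in all 11. FMN1, DBN1 and APBB1IP, given below, lie outside the list and were named for the size of their differences.

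SYNPO, synaptopodin, an actin-binding protein, was at 6.82, 4.06 and 4.698 CPM with DMSO and 10.8 and 9.57 with dBRD9-A, and 6.11 in replicate 2 in OPM2. In H929 it was at 1.03, 1.12 and 1.16 CPM with DMSO and 15.4, 11.6 and 15.2 with dBRD9-A. It rose in both lines, from near 1 CPM in H929 and from a higher level in OPM2, where replicate 2 overlapped the DMSO libraries. The difference was 2.75 ± 0.27 (SE; edgeR adjusted p = 9.14e-05).

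SH3PXD2B, a scaffold of podosomes, was at 1.1, 1.03 and 0.675 CPM with DMSO and 0.207 and 0.287 with dBRD9-A, and 0.168 in replicate 2 in OPM2. Values in H929 were 10.4, 13.2 and 11.9 CPM with DMSO and 17.99, 19.1 and 16.8 with dBRD9-A. Levels fell in OPM2 and rose in H929 without overlap, and the difference was 2.55 ± 0.30 (SE; edgeR adjusted p = 0.000288). AFAP1L2, an adaptor that binds actin filaments, was at 88.3, 83.8 and 69.5 CPM with DMSO and 52.5 and 40.2 with dBRD9-A, and 38.4 in replicate 2 in OPM2. The H929 libraries held 2.42, 0.855 and 1.34 CPM with DMSO and 4.29, 4.78 and 3.99 with dBRD9-A. Its levels ran the other way round, higher in OPM2, and the responses again went down in OPM2 and up in H929, with a difference of 2.32 ± 0.33 (SE; edgeR adjusted p = 0.000948).

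The formin FMN1, which builds unbranched actin filaments, rose by 1.06 in OPM2 and 2.69 in H929, a difference of 1.63 ± 0.16 (SE; edgeR adjusted p = 9.24e-05). Drebrin, the product of DBN1, fell by 0.44 in OPM2 on the log2 scale and rose by 1.43 in H929, a difference of 1.87 ± 0.25 (SE; edgeR adjusted p = 0.000686). DBN1 had 84 counts over the H929 DMSO libraries. ITGA3, an integrin alpha chain, fell in OPM2 (-1.32) and had -0.19 in H929, which was not called, with a difference of 1.13 ± 0.16 (SE; edgeR adjusted p = 0.000926). APBB1IP (RIAM), which links the GTPase RAP1 to integrins, fell from 181 ± 24.9 to 108 ± 8.698 CPM in OPM2 and rose from 5.25 ± 0.737 to 9.01 ± 0.7397 CPM in H929 (SD), a difference of 1.56 ± 0.18 (SE; edgeR adjusted p = 0.0002).

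Matrix genes were called on the other side. Of 23 collagens, laminins and matrix genes 3 (13%) were higher in OPM2, COL27A1, LAMC1 and AGRN, and by edgeR none was higher in H929, also at an unadjusted p under 0.05, by DESeq2 and by limma-voom. The median difference was -0.32. COL27A1, a fibrillar collagen, was at 0.613, 0.315 and 0.1298 CPM with DMSO and 7.85 and 4.15 with dBRD9-A, and 11.5 in replicate 2 in OPM2. H929 cells were at 6.98, 6.02 and 7.53 CPM with DMSO and 20.2, 18.2 and 14.5 with dBRD9-A. It rose in both lines without overlap, and the difference was -2.72 ± 0.44 (SE; edgeR adjusted p = 0.00287). SMOC1, a calcium-binding matrix protein outside that list, had 4 counts over the OPM2 DMSO libraries and 127 over replicates 1 and 3, rose from 7.96 ± 1.005 to 21.1 ± 1.14 CPM in H929 (SD), and differed by -4.06 ± 0.65 (SE; edgeR adjusted p = 0.00237). AGRN was lost without OPM2 dBRD9-A replicate 1 (adjusted p = 0.111), and LAMC1 without it or replicate 3 (adjusted p up to 0.0521). With 12 libraries COL27A1 was called and the other 2 were not. The sum of stromal and epithelial markers moved beside these genes. It was 18.1 to 22.9 CPM in OPM2 with DMSO and 61.2 to 73.6 with dBRD9-A, and 46.6 to 59.9 and 65.98 to 93.9 CPM in H929, with 5 of 8 tested up in each line. In OPM2 most of it was FN1, at 12.8 to 67.3 CPM, and in H929 PECAM1 was the highest member, at 27.4 to 44.9 CPM. COL1A2 and KRT19 were at 0, and the part of such cells was not tested.

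Single genes of transport and of calcium channels were called on either side, at shares near the 3.04% of all genes in the 2 transporter lists. RYR1, CACNA1C and JSRP1 lie outside the lists and were named for the size of their differences. ABCG2, an efflux pump for many drugs, was at 8.01, 6.18 and 9.901 CPM with DMSO and 1.57 and 1.93 with dBRD9-A, and 1.05 in replicate 2 in OPM2. Its H929 levels were 2.76, 3.08 and 2.56 CPM with DMSO and 3.67, 3.77 and 3.64 with dBRD9-A. Treated OPM2 libraries lay far below DMSO, and treated H929 libraries lay just above it. The difference was 2.64 ± 0.26 (SE; edgeR adjusted p = 9.14e-05); the H929 response of 0.43 was not called. It was the 1 called of 25 ABC transporters (4%).

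SLC7A8, a carrier of large neutral amino acids, rose in both lines, from 5.69 ± 1.04 to 17.5 ± 2.88 CPM in OPM2 (SD) and from 1.19 ± 0.111 to 9.21 ± 0.549 CPM in H929, a difference of 1.37 ± 0.22 (SE; edgeR adjusted p = 0.00287). It was the 1 called of 22 amino acid transporters (4.55%). RYR1, a calcium release channel of the endoplasmic reticulum, was at 9.99, 7.25 and 6.203 CPM with DMSO and 51.7 and 47.2 with dBRD9-A, and 28.97 in replicate 2 in OPM2. In H929 it was at 0.613, 0.588 and 0.524 CPM with DMSO and 0.821, 0.624 and 0.926 with dBRD9-A. OPM2 rose from a level that H929 did not reach, which makes RYR1 unlike OAS2 or ZBP1, and the difference was -2.15 ± 0.30 (SE; edgeR adjusted p = 0.00097). CACNA1C, the pore subunit of a voltage-gated calcium channel, had 14 counts over the OPM2 DMSO libraries and 32 over replicates 1 and 3. It rose in OPM2 (1.82) and fell from 11.1 ± 0.736 to 6.62 ± 0.489 CPM in H929 (SD), a difference of -2.53 ± 0.40 (SE; edgeR adjusted p = 0.00229). JSRP1, a partner of such channels in muscle, rose from 1.95 ± 0.254 to 7.34 ± 0.805 CPM in H929 and had a response of 0.03 in OPM2, a difference of 1.91 ± 0.16 (SE; edgeR adjusted p = 1.69e-05). Replicate 2 of OPM2 was at 28.7 CPM of JSRP1, below the DMSO libraries at 53.3, 53.6 and 50.6. A call with 12 libraries was a condition for naming JSRP1.

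Opposite responses of at least 0.5 log2 each way were seen in 42 of the 507 genes, down in OPM2 and up in H929 in 27 and the reverse in 15. Over all 16653 genes tested there were 285 such genes, 166 and 119 in the same order. Signs were opposite in 48.5% of the 507 and in 22.9% of all genes tested. Such genes are more likely to be called for a difference, so the share describes them and tests nothing. MEX3B, an RNA-binding ubiquitin ligase, showed the pattern from near-equal levels. It was at 7.67, 9.305 and 8.201 CPM with DMSO and 4.51 and 5.58 with dBRD9-A, and 5.6 in replicate 2 in OPM2, and at 7.66, 7.19 and 7.35 CPM with DMSO and 10.2, 11.8 and 10.9 with dBRD9-A in H929. Treated libraries went below DMSO in OPM2 and above it in H929, and the difference was 1.34 ± 0.18 (SE; edgeR adjusted p = 0.000604).

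HBD, delta globin, was at 79.4, 77.0 and 56.5 CPM with DMSO and 35.5 and 27.6 with dBRD9-A, and 24.3 in replicate 2 in OPM2. Values in H929 were 5.06, 8.81 and 4.21 CPM with DMSO and 9.31, 7.72 and 14.7 with dBRD9-A. It fell in OPM2 and rose in H929, where replicate 2 of DMSO overlapped the treated libraries, and the difference was 2.04 ± 0.37 (SE; edgeR adjusted p = 0.00561). Of 16 erythroid and megakaryocyte genes, 7 were tested and 5 had no count in any library, HBA2 among them, and HBB was at 3.02 to 6.46 CPM in OPM2. Reads of the globin copies can be shared. SCRN1 fell in OPM2 from 105 counts over the DMSO group and rose from 46.9 ± 1.67 to 69.5 ± 4.22 CPM in H929 (SD), a difference of 1.40 ± 0.27 (SE; edgeR adjusted p = 0.00889). SCRN1 was no longer called without OPM2 dBRD9-A replicate 3 (adjusted p = 0.105).

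**Figure D4:**
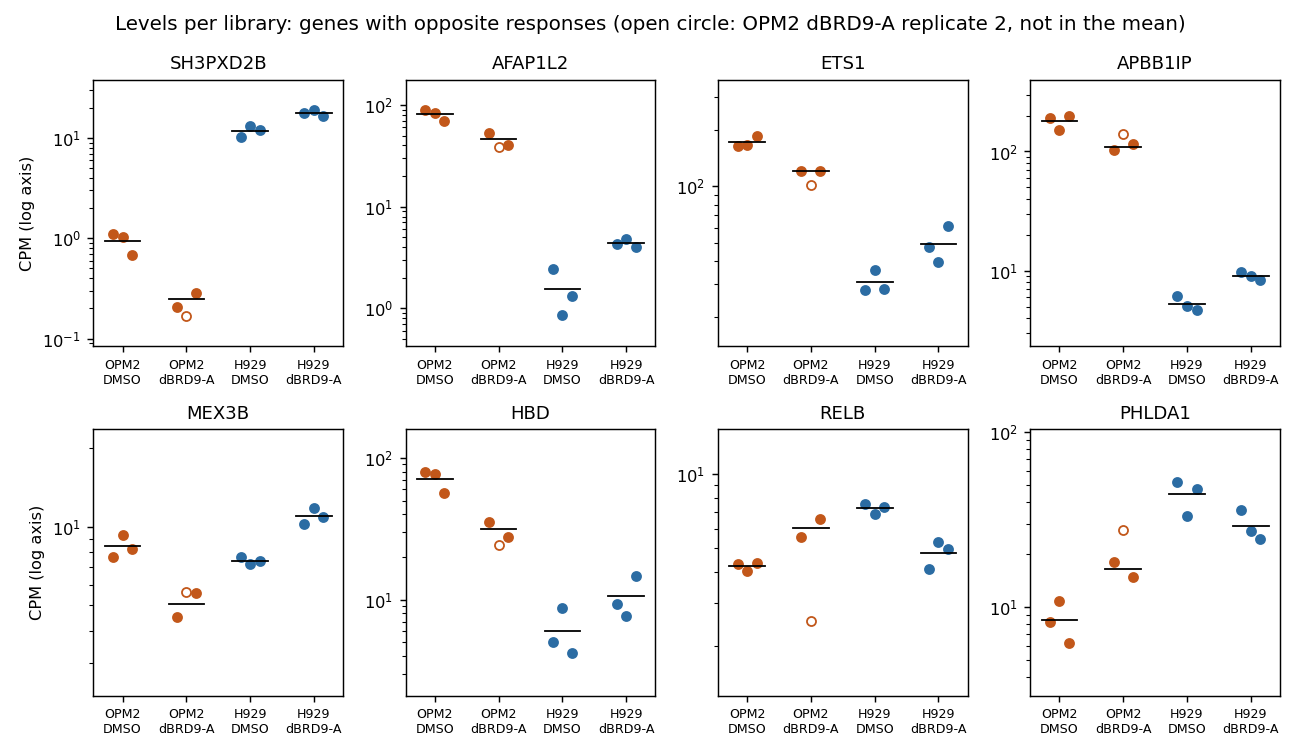
CPM (log axis) in each library for 8 genes whose responses had opposite signs in the 2 lines; points are libraries, bars are group means, and the open circle is OPM2 dBRD9-A replicate 2, outside the mean. SH3PXD2B, AFAP1L2, ETS1, APBB1IP, MEX3B and HBD go down in OPM2 and up in H929, and RELB and PHLDA1 do the reverse.

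Lipoprotein lipase (LPL) and APOL3 were at 0 in one group. LPL had no count in the 3 H929 DMSO libraries and 16 counts with dBRD9-A, at least 6.11-fold higher against a floor of 3 counts over the group. In OPM2 it was at 20.2, 21.2 and 19.7 CPM with DMSO and 12.9 and 12.1 with dBRD9-A, and 12.4 in replicate 2, lower in every treated library, and its difference had an edgeR adjusted p of 0.00847. APOL3, an apolipoprotein L induced by interferon, had no count in the 3 OPM2 DMSO libraries and 43 in replicates 1 and 3, at least 22.9-fold higher. The H929 libraries held 2.0, 1.69 and 1.61 CPM with DMSO and 6.48, 6.03 and 5.42 with dBRD9-A, and the adjusted p of its difference was 0.0142. The bounds cover counting error only.

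Other genes of the OPM2 side had few reads in OPM2 with DMSO. ANXA6, an annexin, went from 0.1604 ± 0.0261 to 1.201 ± 0.183 CPM in OPM2 (SD), with 15.9 ± 2.403 and then 28.3 ± 0.487 CPM in H929, and differed by -2.02 ± 0.27 (SE; edgeR adjusted p = 0.000658). CDC14B, a phosphatase of the cell cycle, rose by 3.41 and 0.95 and differed by -2.45 ± 0.28 (SE; edgeR adjusted p = 0.000181). PSD3, an exchange factor for ARF6, rose in OPM2 (2.46) and had -0.03 in H929, with a difference of -2.49 ± 0.29 (SE; edgeR adjusted p = 0.000236). MGAT5B, a glycosyltransferase, rose in OPM2 (2.33) and had 0.01 in H929, with a difference of -2.32 ± 0.29 (SE; edgeR adjusted p = 0.000353).

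HLX, a homeobox factor, and PLAC1, a gene of the placenta, had 8 and 10 counts over the OPM2 DMSO libraries, and their differences were -2.71 ± 0.47 (SE; edgeR adjusted p = 0.00443) and -2.76 ± 0.45 (SE; edgeR adjusted p = 0.00274). CD68, a lysosomal glycoprotein of macrophages, was at 5.88, 3.604 and 4.97 CPM with DMSO and 36.05 and 27.6 with dBRD9-A, and 36.3 in replicate 2 in OPM2. H929 cells were at 117, 144 and 114 CPM with DMSO and 266, 288 and 303 with dBRD9-A. It rose in both lines without overlap and differed by -1.49 ± 0.21 (SE; edgeR adjusted p = 0.00097). It was the 1 called of 7 myeloid markers tested, and MPO and AIF1 of that list had no count. The list summed to 5.32 to 7.63 CPM in OPM2 with DMSO and 28.9 to 38 with dBRD9-A, and to 118.9 to 147 and 279 to 311 in H929, and most of this was CD68. The part of such cells in the result was not tested. A same-strand transcript covers 95.3% of the exon bases of CD68. On the H929 side, HECW1, a ubiquitin ligase, rose by 0.89 in OPM2 and 3.10 in H929 and differed by 2.21 ± 0.32 (SE; edgeR adjusted p = 0.00118). HECW1 had 82 counts over the H929 DMSO libraries. CPNE2, a copine, rose in H929 (2.40), had 0.27 in OPM2 and differed by 2.13 ± 0.22 (SE; edgeR adjusted p = 9.24e-05).

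MYC and most of its targets fell in both lines. The share of targets called for a difference, 2%, was near the 3.04% of all genes. MYC was at 284, 296 and 294 CPM with DMSO and 115 and 134 with dBRD9-A, and 96.6 in replicate 2 in OPM2, and at 139, 282 and 216 CPM with DMSO and 59.5, 46.2 and 87.9 with dBRD9-A in H929. It fell in both, without overlap, and the difference of -0.44 ± 0.32 (SE; edgeR adjusted p = 0.639) was not called. Of 50 MYC targets 47 fell in OPM2 and 46 in H929, with medians of -0.71 and -0.65, and 1 (2%) was called, EXOSC5, which was lost in 6 of the 11 fits without 1 library. Of 104 ribosome biogenesis factors 95 fell in OPM2 and 98 in H929, with medians of -0.57 and -0.60, and again 1 was called (0.962%). Of 13 genes of the MYC and MAX network 2 were called (15.4%), MXD1 and MXD4, which encode partners of MAX that oppose MYC, both higher in OPM2. Each was lost in 7 of the 11 fits without 1 library, and neither was called with 12.

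The ribosome biogenesis factor called was UTP3, of the small subunit processome, which went against the rest of its list. It was at 410.2, 400.5 and 428 CPM with DMSO and 734 and 703 with dBRD9-A, and 1299 in replicate 2 in OPM2, and at 353, 375 and 360.5 CPM with DMSO and 326, 284 and 341 with dBRD9-A in H929. It rose in OPM2, with replicate 2 highest of all, and was not called in H929. The difference was -0.95 ± 0.12 (SE; edgeR adjusted p = 0.00043), and with 12 libraries it was not called. UBE2J1, which acts in the disposal of misfolded secretory proteins, fell by 2.12 and 2.30 on the log2 scale in OPM2 and H929, and its difference was -0.18 ± 0.14 (SE; edgeR adjusted p = 0.659), not called.

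By edgeR no member was called among 35 genes of the RNA polymerase I and III machinery, 79 cytosolic ribosomal protein genes, 51 DNA replication genes, 24 glycolysis genes or 25 replication-dependent histone genes. At an unadjusted p under 0.05 there were 0, 2, 3, 6 and 6, and DESeq2 and limma-voom with 12 libraries each called 0, 0, 0, 1 and 0. The median difference of the histone genes was 0.57, with 5 that rose in OPM2 and 12 that rose in H929. Histone transcripts lack poly(A) tails, so poly(A)-selected libraries hold few of them.

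Regulators of G1 and of cell death were called for single members, 2 of 21 (9.52%) and 2 of 25 (8%), all higher in OPM2. On the H929 side 1 regulator of cell death had an unadjusted p under 0.05, and limma-voom with 12 libraries called 1. CCND2, cyclin D2, was at 2005, 1615 and 2554 CPM with DMSO and 1393 and 1883 with dBRD9-A, and 899 in replicate 2 in OPM2. Its H929 levels were 21.2, 38.5 and 24.9 CPM with DMSO and 5.498, 4.298 and 7.69 with dBRD9-A. H929 fell without overlap, OPM2 groups overlapped, and the difference was -1.88 ± 0.33 (SE; edgeR adjusted p = 0.00515). CCND1, cyclin D1, fell in H929 (-0.62), had 14 counts over the OPM2 DMSO libraries, and its difference of -1.16 ± 0.64 (SE; edgeR adjusted p = 0.471) was not called. CDKN1A, the inhibitor p21, went from 27.4 ± 3.97 to 55.4 ± 6.52 CPM in OPM2 (SD), with 106 ± 2.63 and then 116 ± 15.96 CPM in H929, and differed by -0.85 ± 0.16 (SE; edgeR adjusted p = 0.00889). Replicate 2 of OPM2, at 20.3 CPM, was below the DMSO libraries. BMF, which binds and blocks survival proteins of the BCL2 family, rose in both lines, by 1.75 and 1.01, and differed by -0.73 ± 0.15 (SE; edgeR adjusted p = 0.0114). Replicate 2 was at 112 CPM of BMF, against 169 and 151 in its group mates. CDKN1A was no longer called without OPM2 dBRD9-A replicate 1 (adjusted p = 0.0642), and BMF was lost without the same library (adjusted p = 0.0692). With 12 libraries CCND2, CDKN1A and BMF were not called.

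The stress, metabolic and other lists that follow held 1 or a few calls each, at shares of 3.7% to 10%, against 3.04% of all genes. Of 30 ATF4 targets ATF3 and ASNS were higher in H929 and STC2 in OPM2 (10%). Of 45 unfolded protein response genes PDIA3 and MANF were higher in H929 (4.44%), and 22 fell in OPM2 and 11 in H929. Of 27 cholesterol synthesis genes FDFT1 was higher in H929 (3.7%). Of 26 TNF ligands and receptors and 26 p53 targets 1 was called in each (3.85%), TNFSF13 and CDKN1A. CIITA, the activator of class II antigen presentation, was the 1 called of 24 antigen presentation genes (4.17%). Apart from CDKN1A, each of these was lost in at least 2 of the 11 fits without 1 library. With 12 libraries edgeR called no member of these lists. Under another scaling (RLE factors) the unfolded protein response list had 1 call on each side. The bar plot of the lists sets the shares beside those of all genes.

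**Figure D5:**
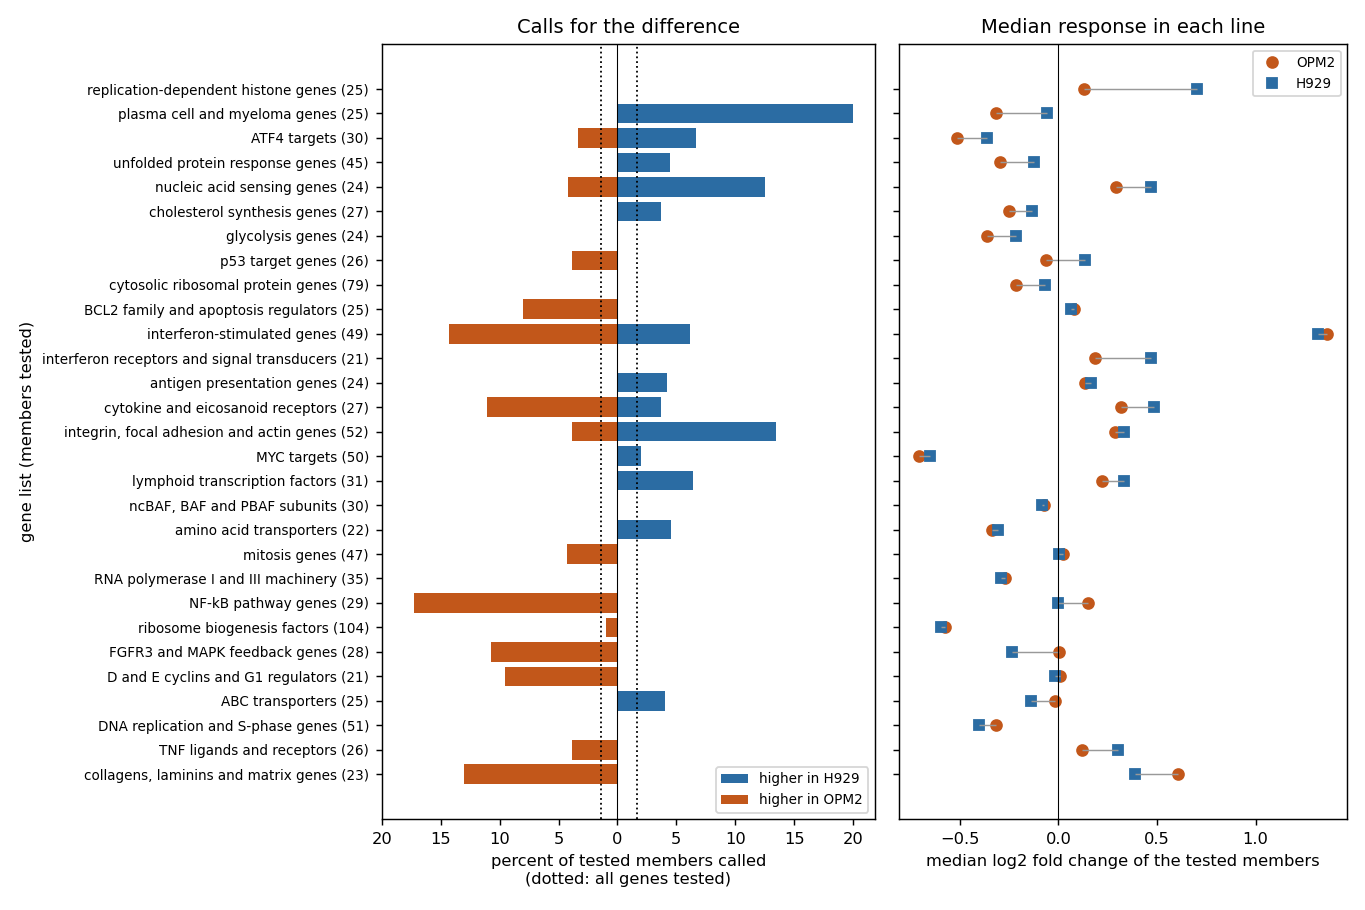
Left, percent of tested members of each gene list called for the difference, higher in H929 to the right and higher in OPM2 to the left, with dotted lines at the 1.63% and 1.41% of all genes tested; right, median log2 fold change of the same members in OPM2 (circles) and H929 (squares). Plasma cell genes and NF-kB genes reach 20% and 17.2% on opposite sides, and MYC targets and ribosome biogenesis factors have low medians in both lines.

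Of the complex itself, none of 30 ncBAF, BAF and PBAF subunits was called by edgeR, with 1 at an unadjusted p under 0.05 and none by DESeq2 or limma-voom. GLTSCR1L rose in both lines, by 0.82 and 0.57, and its difference was -0.24 ± 0.13 (SE; edgeR adjusted p = 0.423). GLTSCR1 rose by 0.37 and 0.30, with a difference of -0.07 ± 0.15 (SE; edgeR adjusted p = 0.93), and replicate 2 of OPM2, at 23.6 CPM, was below the DMSO libraries. CRBN, whose product the compound recruits, was at 28.98 ± 1.05 with DMSO and 27.9 ± 2.1 CPM with dBRD9-A in OPM2 (SD) and at 34.3 ± 1.45 and 33.3 ± 2.16 CPM in H929, with a difference of 0.06 ± 0.12 (SE; edgeR adjusted p = 0.92). None of these was called for the difference.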

How the data were processed

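RNA was measured in 12 libraries of OPM2 and H929 cells, 3 in each of 4 groups. Per the labels' protocols, a stranded kit for messenger RNA was used. STAR, featureCounts, hg19 and GRCh37 are named in the submitters' processing notes without versions. How strand was set in counting is not stated there. The deposited counts are whole numbers per RefSeq transcript, not normalised. The deposited FPKM and TPM values were not used in any test. For each gene symbol the transcript with most counts over the 12 libraries was kept.

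The main fit took 11 libraries, without OPM2 dBRD9-A replicate 2, in R 4.3.3 with edgeR 4.0.16 (quasi-likelihood test, 1 mean per group, TMM factors, filterByExpr by group), which leaves 7 residual degrees of freedom, and 8 with all 12. Calls were made at a Benjamini-Hochberg adjusted p under 0.05 over all genes tested. CPM values use TMM factors of all 12 libraries, and log2 CPM a prior count of 0.25. The fit was tested on simulated data with known changes. These were drawn with the same spread for all genes and no GC trend, so the test does not cover the library deviations given above.

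The genes and the 36 lists were chosen with earlier results of these data known. Named genes were called in both fits, with a mean of at least 1 log2 CPM in a group and groups apart in a line: the 15 highest, the 15 lowest and the 8 with the largest opposite responses, plus up to 4 called members per list and a fixed set (BRD9, GLTSCR1, GLTSCR1L, CRBN, MYC, UBE2J1, PARP14, FGFR3, CCND1, CCND2, OAS2, ABCG2, SYNPO and CYSLTR1). The text takes most of these. PARP9, PARP12 and PLSCR1, and further list members named beside a count, lie outside the rule and were chosen after their values were seen. Symbols whose counts lay within 5% of another symbol's in every library (139) are not named. Alternatives were RLE factors, unscaled library size, DESeq2 1.42.0, limma-voom (limma 3.58.1) with library weights, 2 other filters, the sum over transcripts, removal of a GC trend (lowess span 0.3), the replicate number as a block, and each library left out.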

Additional observations from a re-analysis of the deposited data

Results flagged for a closer look

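In all, 507 genes had a response to dBRD9-A that differed between OPM2 and H929 by the test of the difference itself. The log2 differences of the genes named with values follow, as H929 minus OPM2, and no explanation was tested for any of them. Among interferon, sensing and restriction genes they were OAS2 -2.12, LGALS3BP -4.0, UBE2L6 -1.75, PARP14 -1.03, PARP12 -2.67, ZBP1 -1.72, APOBEC3F -2.54 and APOL3 -5.51 on the OPM2 side. On the H929 side they were DTX3L 1.32, PLSCR1 1.06, TMEM173 1.82 and MAVS 0.89.

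Receptors and NF-kB genes had CYSLTR1 -3.81, CXCR3 -1.41, CSF2RB -1.05, RELB -1.07, NFKB2 -0.71, ICAM1 -2.40 and CFLAR -1.01, and PTGER4 2.23 and MET 1.71. Plasma cell and lymphoid genes had MZB1 1.04, SLAMF7 1.08, WHSC1 0.64, CAV1 1.22, ETS1 1.25 and FLI1 0.58. Cytoskeleton and adhesion genes had SYNPO 2.75, SH3PXD2B 2.55, AFAP1L2 2.32, FMN1 1.63, DBN1 1.87, ITGA3 1.13, APBB1IP 1.56 and RHOBTB1 1.89.

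Transport and calcium genes had ABCG2 2.64, SLC7A8 1.37 and JSRP1 1.91, and RYR1 -2.15 and CACNA1C -2.53. Matrix, growth and death genes had COL27A1 -2.72, SMOC1 -4.06, CCND2 -1.88, CDKN1A -0.85, BMF -0.73, UTP3 -0.95 and PHLDA1 -1.51. The others were ANXA6 -2.02, CD68 -1.49, CDC14B -2.45, PSD3 -2.49, MGAT5B -2.32, HLX -2.71 and PLAC1 -2.76 on the OPM2 side and MEX3B 1.34, HBD 2.04, SCRN1 1.40, HECW1 2.21, CPNE2 2.13 and LPL 6.46 on the H929 side. The fitted values of LPL and APOL3 rest on a group without a single count and are no bounds.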

How the results depend on the processing

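The number of genes called varied with the libraries and with the tool. It was 507, with 272 higher in H929 and 235 higher in OPM2, in the 11-library fit. With all 12 libraries it was 95 (48 and 47), with their GC trend removed 233 (103 and 130), and with limma-voom weights 882 (419 and 463). DESeq2 called 830 (438 and 392) from the 11 libraries and 372 (190 and 182) from all 12. Without 1 further library the total ran from 228 to 653, the calls higher in H929 from 108 to 377 and those higher in OPM2 from 120 to 276. It was 228 without OPM2 dBRD9-A replicate 1, which leaves 1 treated OPM2 library that is assumed to vary like the other groups, 319 without replicate 3 and 332 without OPM2 DMSO replicate 1. Calls higher in H929 were also reduced, to 180 without H929 DMSO replicate 3 and 181 without OPM2 DMSO replicate 2. The cause was not tested. The other scalings, filters and counts gave 468 to 620, and the GC trend removed from the 11 libraries gave 688 (400 and 288). With the replicate block 519 were called (283 and 236), and with the replicate block and all 12 libraries 33 (17 and 16). Replicates share a number only: their deviations correlated at -0.20 to 0.15, above 0.1 in 6 of 15 pairs.

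No gene named with a value changed direction in any alternative where it was called here, and 19 of the 60 called ones kept their call in all 24. These alternatives reuse the same libraries, and the highest, lowest and opposite genes had to be called with all 12 to be named. Depth limits the genes with few counts in OPM2 with DMSO, such as SMOC1 and PARP12, where the fold is poorly fixed. Some rises in H929 also start from few counts over its DMSO libraries. These were 32 for RHOBTB1, 49 for PTGER4, 82 for HECW1 and 84 for DBN1.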
